A study of Mus musculus with 4 samples.

Results

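The genes described here encode nuclear subunits of the oxidative phosphorylation complexes, 54 genes chosen as a list of named subunits. Transcripts in the deposited tables carry no gene names, and names assigned to them here covered 21919 genes. The 54 genes were sorted by symbol into complex I (28 Nduf genes), complex II (4 Sdh genes), complex III (7 genes, Uqcr and Cyc1), complex IV (8 Cox genes) and complex V (7 Atp5 genes). Ndufa4 was kept with complex I by its symbol, although its protein is today counted with complex IV. Expression values could be assigned to 52 of the 54 genes, all but Cox6b1 of complex IV and Atp5j of complex V, and all 52 were above the minimum level of 1 FPKM set for testing. FPKM count sequenced fragments relative to transcript length and library size, so levels can be compared between genes per length of transcript.

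Oxidative phosphorylation takes place in the inner mitochondrial membrane. Complexes I and II pass electrons from NADH and succinate to ubiquinone, complex III passes them on to cytochrome c, complex IV to oxygen, and the proton gradient built on the way drives ATP synthesis in complex V. Most subunits are encoded in the nucleus and imported, and a small set, which lies in the reaction cores of complexes I, III, IV and V, is encoded in mitochondrial DNA. Embryonic stem (ES) cells grown with LIF and serum are known to use glycolysis strongly while they keep an active respiratory chain.

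RNA-seq was performed on total RNA of 46C mouse ES cells that carry a TAP-tag knock-in at the end of Atad2, which encodes an AAA ATPase with a bromodomain. The tagged line was derived from 1 selected knock-in clone, and all samples carry the tag. Cells were cultured with LIF and fetal bovine serum on gelatin and transfected with an inactive scrambled siRNA (si ctrl, 2 libraries) or with an active siRNA against Atad2 (si Atad2, 2 libraries). Each si Atad2 library was processed by the authors together with the si ctrl library of the same number, and these are called pair 1 and pair 2 below. The labels speak of 1 active siRNA, whereas the study describes 2 active siRNAs and the sequencing of every RNA sample in duplicate. The siRNA used in each si Atad2 library is not given in the sources used here. The 2 libraries of a group may thus be 2 runs of the same RNA or, for si Atad2, 2 different siRNAs. Nothing in the labels gives separate cultures, so p-values measure the spread between these libraries, which may be technical. The test pools this spread over many genes, so the p-values and intervals of a gene rest largely on the spread of other genes.

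The Atad2 transcript itself was at 34.1 and 36.0 FPKM in the si ctrl libraries and at 10.1 and 13.0 FPKM in the si Atad2 libraries. The groups did not overlap, 29.6% and 36.2% of the si ctrl level remained in pairs 1 and 2, and the mean log2 ratio was -1.53 (SE 0.076, adjusted p by limma = 1.97e-06). Pou5f1, the defining ES cell factor, was at 807 and 778 FPKM in si ctrl and at 739 and 701 FPKM in si Atad2. All 8 ES cell markers checked were at 68.6 FPKM or more in si ctrl, while 10 differentiation markers reached at most 2.34 FPKM and 7 fibroblast markers at most 6.46 FPKM. Sequencing depth is unknown from the files. The half-width of the authors' 95% interval of the level, taken over the leading transcript of each subunit gene and the 4 libraries, ranged from 0.682% to 17.3% of the level, with a median of 3.55%.

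At the adjusted threshold, 1 of 52 subunit genes (1.92%) was called higher, a share near that of all genes tested. Uqcrfs1, which encodes the Rieske iron-sulfur protein of complex III, rose in both pairs, by 1.63-fold and 1.57-fold, and the test called no subunit gene lower. Of 11058 genes tested with limma across the whole table, 1.63% were called higher and 0.515% lower at an adjusted p under 0.05, against 1 and 0 of the 52 subunit genes. At an unadjusted p under 0.05, 5 subunit genes were lower and 2 were higher, where 8.04% and 8.31% of all genes tested were. The 5 were Ndufb4, Ndufs3, Ndufs7, Sdhb and Uqcrc1, and the 2 were Uqcrfs1 and Uqcrh. Without si Atad2 replicate 1 the count lower was 1 in place of 0 (Ndufb4, 1.92% of the subunit genes), where 3.3% of all genes were called lower, and without si Atad2 replicate 2 it was 2 (Ndufs3 and Sdhb, 3.85%), where 7.76% of all genes were. These shares of the subunit genes were below those of all genes.

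For the other 51 subunit genes the 95% intervals of the mean log2 ratio lay between -0.39 and 0.25, which is 0.763-fold to 1.19-fold on the scale of FPKM plus 1. In 45 of them the interval held 0, and the median half-width was 0.131. A change of the size seen for Uqcrfs1 was thus outside the interval of each of these 51 genes.

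**Figure D1:**
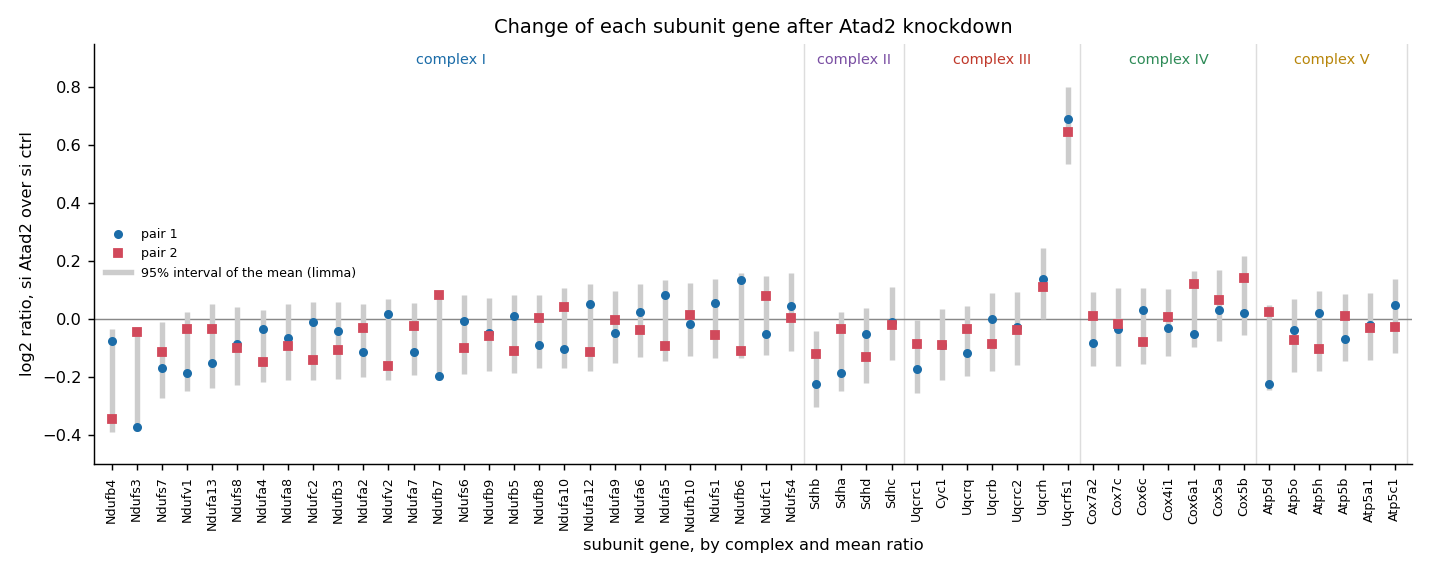
Log2 ratio of si Atad2 over si ctrl (vertical axis, FPKM plus 1) for 52 subunit genes, sorted by complex and mean ratio. Circles are pair 1, squares pair 2 and grey bars the 95% interval of the mean from limma; Uqcrfs1 lies at 0.69 and 0.64, and all other intervals lie between -0.39 and 0.25.

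As a group the subunit genes lay slightly below all genes tested, by an amount that varied with the minimum level set. The median of the mean log2 ratio over the 52 subunit genes was -0.044, beside -0.0084 over all genes tested, a difference of -0.035. With each library rescaled to the same sum (TPM) the medians were -0.0091 and 0.024, and the difference was -0.033. With a minimum mean of 5 FPKM the median over all genes was -0.0201 and the difference was -0.0238. The difference was thus smaller when genes of low level were left out. Rescaling to TPM moved the subunit genes up together, by 0.020 to 0.043 on the log2 scale. Ratios that are below 0 and nearer to 0 than that change sign with it. Of the 52 subunit genes, 26 (50%) had a ratio below 0 in both pairs, where 34.1% of all genes did, and 5 (9.62%) had a ratio above 0 in both, where 28.6% of all genes did. On the TPM scale these counts were 15 (28.8%, all genes 23.8%) and 11 (21.2%, all genes 38.4%). Both si Atad2 libraries lay below both si ctrl libraries for 19 subunit genes (36.5%), where 26.8% of all genes did, and above them for 3 (5.77%), where 22.3% did; the 3 were Ndufs4, Uqcrh and Uqcrfs1. Summed over the 52 genes, the level was 7341 and 7109 FPKM in si ctrl and 7110 and 7024 FPKM in si Atad2, which was 2.48% and 2.41% of the FPKM of all named genes in si ctrl and 2.46% and 2.45% in si Atad2. The 2 si ctrl libraries differed from each other by more than the groups did in this share. In bulk RNA, less RNA per cell and fewer cells of a type cannot be told apart.

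The subunit genes were expressed at high levels, from 11.1 FPKM for Ndufb4 to 948 FPKM for Atp5b as the mean of the si ctrl libraries, an 85.7-fold span. Their median was 92.5 FPKM, beside 9.92 FPKM over all genes tested. The median si ctrl level was 75.8 FPKM in complex I, 88.5 in complex II, 161 in complex III, 144 in complex IV and 136 in complex V. The span of levels was 1.13-fold among the 4 genes of complex II and 24.6-fold in complex I. It was 6.37-fold in complex III, 12.3-fold in complex IV and 16.9-fold in complex V. The lowest genes of complexes I, IV and V (Ndufb4, Cox7c and Atp5h) share stretches with 2, 4 and 4 annotated pseudogenes. Reads of these genes may have been split between copies, so these spans are uncertain. The 2 highest genes of complex V, Atp5b and Atp5a1, encode the beta and alpha subunits of the catalytic head, which holds several copies of each. Whether RNA levels follow the number of copies in a complex was not tested.

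**Figure D2:**
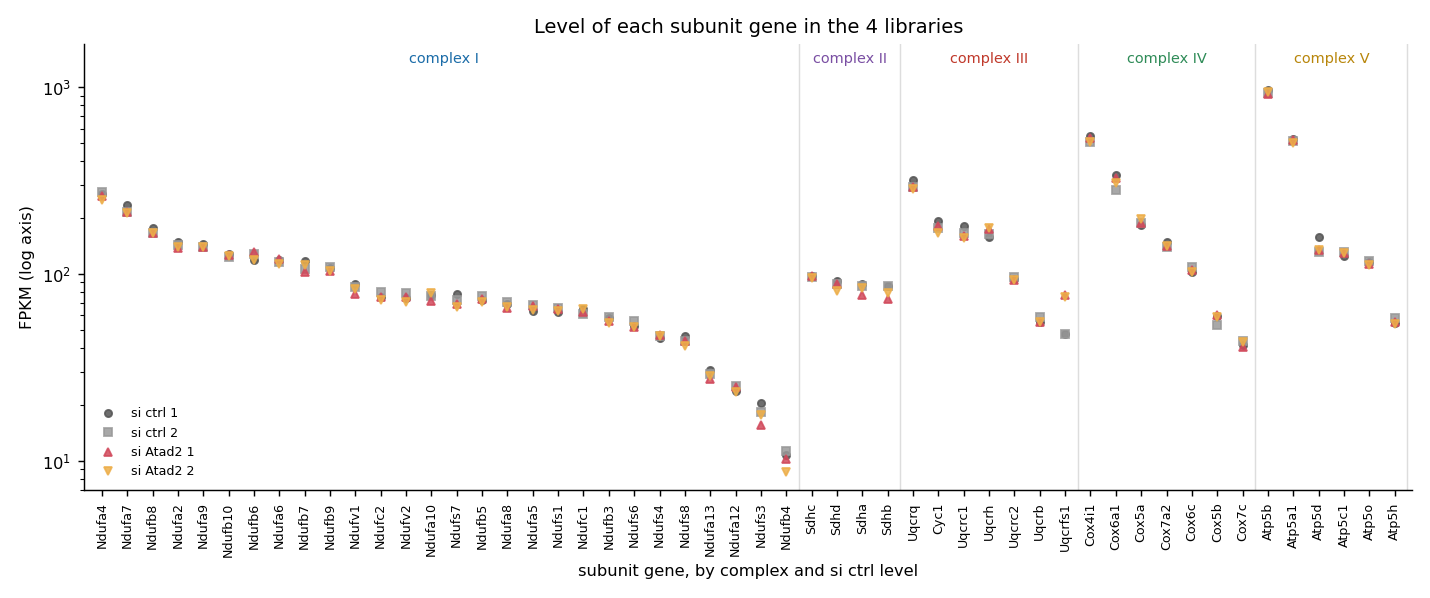
FPKM (log axis) of 52 subunit genes in the 4 libraries, sorted by complex and by si ctrl level. Each symbol is 1 library; levels run from 11.1 FPKM (Ndufb4) to 948 FPKM (Atp5b) in si ctrl, and Uqcrfs1 has both si Atad2 libraries well above both si ctrl libraries.

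In complex I, the NADH dehydrogenase, 28 genes were measured, with a median of -0.056. Of them 15 (53.6%, all genes 34.1%) had a ratio below 0 in both pairs and 1 (3.57%, all genes 28.6%) above. On the TPM scale the counts were 8 (28.6%, all genes 23.8%) and 2 (7.14%, all genes 38.4%). None of the 28 passed the adjusted threshold. At an unadjusted p under 0.05, 3 were lower, where 8.04% of all genes tested were. Ndufa4 was the most expressed, with 269 and 276 FPKM in si ctrl and 262 and 249 in si Atad2. Its si Atad2 libraries lay below its si ctrl libraries by a small margin (mean log2 ratio -0.092, SE 0.057, adjusted p by limma = 0.464). Ndufs4, an accessory subunit needed for stable assembly of the complex, had the highest ratio of complex I, with 45.5 and 46.4 FPKM in si ctrl and 47.1 and 46.4 in si Atad2. The groups of Ndufs4 were separated by less than 1 FPKM (mean log2 ratio 0.024, SE 0.062, adjusted p by limma = 0.887).

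Ndufb4, an accessory subunit of the membrane arm, had both the lowest level and the lowest ratio of complex I. It was at 10.8 and 11.3 FPKM in si ctrl and at 10.2 and 8.70 in si Atad2. The groups did not overlap, but the 2 pairs differed, with log2 ratios of -0.077 and -0.35 (mean -0.21, SE 0.081, adjusted p by limma = 0.217). Ndufs3, a core subunit of the arm that faces the matrix, was at 20.4 and 18.1 FPKM in si ctrl and at 15.5 and 17.6 in si Atad2. Here the pairs differed the other way round, with log2 ratios of -0.37 and -0.045 (mean -0.21, SE 0.082, adjusted p by limma = 0.229). Ndufs3 shares a stretch of 792 bases at 95% identity or more with an annotated pseudogene and Ndufb4 shares stretches of up to 210 bases with 2, so reads of these genes may have been split between copies.

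Ndufs7, a core subunit that carries an iron-sulfur cluster next to the ubiquinone site, was at 77.8 and 72.1 FPKM in si ctrl and at 69.1 and 66.6 in si Atad2. It was lower by a like amount in both pairs, with log2 ratios of -0.17 and -0.11 (mean -0.14, SE 0.060, adjusted p by limma = 0.267). The transcripts of Ndufs7 and Atp5d lie in the same merged locus, chromosome 10 from 79697304 to 80369637. Both were named there by transcript length, so their identity rests on that match. Ndufb7, another accessory subunit of the membrane arm, was among the 3 genes whose pairs differed most. Its levels were 118 and 106 FPKM in si ctrl and 103 and 112 in si Atad2, so that the groups overlapped and the log2 ratios, -0.20 and 0.082, had opposite signs.

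Complex II, the succinate dehydrogenase shared with the citric acid cycle, is encoded by nuclear genes alone. All 4 genes had a ratio below 0 in both pairs (median -0.10), where 34.1% of all genes tested did. On the TPM scale 3 of 4 did, where 23.8% of all genes tested did. None of the 4 passed the adjusted threshold. Sdhb, the iron-sulfur subunit, was at 86.0 FPKM in both si ctrl libraries and at 73.5 and 79.1 FPKM in si Atad2. The groups did not overlap, and the log2 ratios were -0.22 and -0.12 (mean -0.17, SE 0.061, adjusted p by limma = 0.177, the lowest of the 51 genes). Sdhc, a membrane anchor and the most expressed of the 4, was at 97.9 and 96.7 FPKM in si ctrl and at 97.1 and 95.4 in si Atad2. The groups of Sdhc overlapped, and its mean log2 ratio of -0.015 (SE 0.058) had the opposite sign on the TPM scale.

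In complex III, the cytochrome bc1 complex, Uqcrfs1 was the least expressed of 7 genes in si ctrl. The Rieske protein it encodes takes an electron from ubiquinol and hands it to cytochrome c1, and it is the last catalytic subunit to be inserted when the complex is assembled. Its level was 47.4 FPKM (45.6 to 49.3, the 95% interval of the authors) in library si ctrl 1 and 47.9 (45.9 to 49.9) in si ctrl 2, against 77.3 (74.9 to 79.7) in si Atad2 1 and 75.4 (73.0 to 77.8) in si Atad2 2. Both si Atad2 libraries were far above both si ctrl libraries, while the intervals of the libraries within each group overlapped. The log2 ratios were 0.69 and 0.64 (mean 0.67, SE 0.060, 95% interval 0.54 to 0.80, adjusted p by limma = 0.000224). By mean ratio it was number 16 of the 180 genes called higher, and by adjusted p number 6 of all 11058 genes tested.

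The call did not hold in 1 of the settings tried: without a minimum level, where 18955 genes were tested and no gene of the whole table was called, the adjusted p by limma of Uqcrfs1 was 0.331 at the same log2 ratio of 0.67. The value rests on a single listed transcript of 1313 bases whose locus, GRCm38 chromosome 13 from 30540311 to 30545316, lies inside the annotated gene (30540308 to 30545362, minus strand, 2 exons). It is the only coding gene of that locus, and its transcript shares no stretch of 100 bases at 95% identity with another annotated gene. Among 9 other coding genes within 1000000 bases of it, a set chosen after its values were seen, 6 were tested. Their mean log2 ratios were between -0.047 and 0.23 with adjusted p by limma from 0.19 to 0.993.

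No other complex III gene passed the adjusted threshold. The median level of the other 6 was 169 and 165 FPKM in si ctrl and 167 and 161 in si Atad2. Uqcrfs1 stood at 0.280 and 0.290 of that median in si ctrl and at 0.463 and 0.468 in si Atad2. Uqcrh, the hinge protein between cytochrome c1 and cytochrome c, came next, at 158 and 163 FPKM in si ctrl and at 174 and 176 in si Atad2. The groups of Uqcrh did not overlap, with log2 ratios of 0.14 and 0.11, but it did not pass the adjusted threshold (mean 0.12, SE 0.056, adjusted p by limma = 0.299).

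Uqcrc1, a core protein of the matrix side, had the lowest ratio of complex III. It was at 180 and 166 FPKM in si ctrl and at 160 and 157 in si Atad2, with no overlap (mean log2 ratio -0.13, SE 0.057, adjusted p by limma = 0.284). Uqcrq, a small subunit near cytochrome b and the most expressed gene of the complex, was at 317 and 290 FPKM in si ctrl and at 293 and 283 in si Atad2. The groups of Uqcrq overlapped, and its mean log2 ratio was -0.076 (SE 0.056, adjusted p by limma = 0.542). The summed level of the 7 genes was 0.988-fold and 1.01-fold of si ctrl in pairs 1 and 2.

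**Figure D3:**
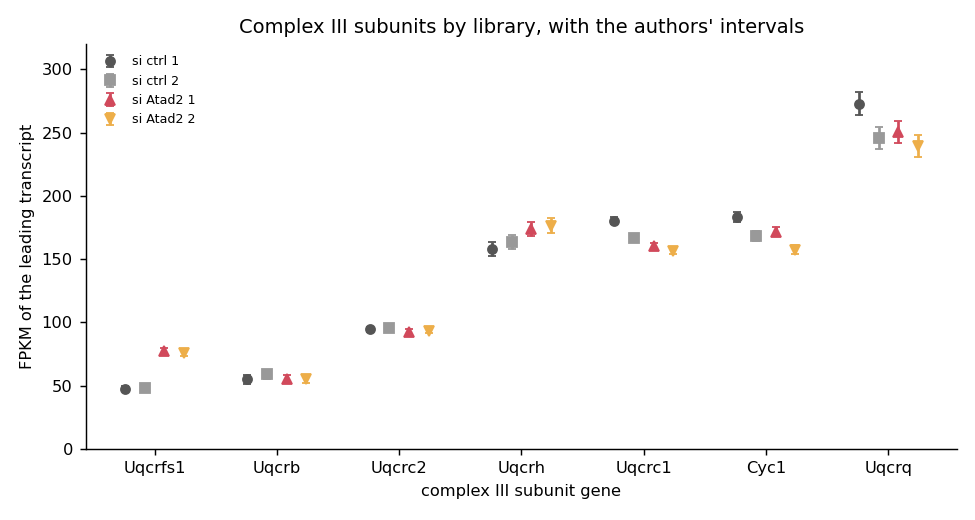
FPKM of the leading transcript of 7 complex III genes in the 4 libraries, with the authors' 95% intervals as bars. Uqcrfs1 is near 47 FPKM in si ctrl and at 75.4 and 77.3 FPKM in si Atad2, while none of the other 6 genes passed the test.

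In complex IV, the cytochrome c oxidase, 7 of 8 genes were measured, and the median of -0.012 was 0.023 on the TPM scale. A ratio below 0 in both pairs was found in 1 (14.3%, all genes 34.1%) and above 0 in 2 (28.6%, all genes 28.6%). None of the 7 had an unadjusted p under 0.05, where 8.04% of all genes tested were lower and 8.31% higher. Cox4i1, the common isoform of the subunit that binds ATP as a regulator, was the most expressed, at 544 and 508 FPKM in si ctrl and 532 and 510 in si Atad2. The 2 si ctrl libraries bracketed both si Atad2 libraries, and the mean log2 ratio of -0.012 (SE 0.053) had the opposite sign on the TPM scale. Cox5b, a subunit that binds zinc, had the highest ratio of the complex, with 59.6 and 53.6 FPKM in si ctrl and 60.5 and 59.2 in si Atad2. Its groups overlapped (mean log2 ratio 0.081, SE 0.063, adjusted p by limma = 0.565).

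Cox7a2, the widely expressed isoform of a small subunit, had the lowest ratio of complex IV, at 149 and 140 FPKM in si ctrl and 141 in both si Atad2 libraries. The groups overlapped, and the mean log2 ratio of -0.035 (SE 0.058) had the opposite sign on the TPM scale. Cox7c, another small subunit, was the least expressed, at 41.8 and 43.8 FPKM in si ctrl and at 40.8 and 43.2 in si Atad2. The 4 libraries of Cox7c were interleaved, and 4 annotated pseudogenes share stretches of up to 234 bases with it.

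In complex V, the ATP synthase, 6 of 7 genes were measured. None had an unadjusted p under 0.05, where 8.04% of all genes tested were lower and 8.31% higher. A ratio below 0 in both pairs was found in 2 (33.3%, all genes 34.1%) and above 0 in 0 (all genes 28.6%). On the TPM scale the counts were 1 (16.7%, all genes 23.8%) and 2 (33.3%, all genes 38.4%). Atp5b, the catalytic beta subunit, was at 965 and 932 FPKM in si ctrl and at 920 and 938 in si Atad2. The groups overlapped, with a mean log2 ratio of -0.030 (SE 0.053) that had the opposite sign on the TPM scale. Atp5d, a subunit of the central stalk, had the lowest ratio of the complex, although its pairs did not share a sign. It was at 157 and 132 FPKM in si ctrl and at 134 in both si Atad2 libraries, so that si ctrl 1 alone lay apart (log2 ratios -0.22 and 0.026, SE of the mean 0.067, adjusted p by limma = 0.505).

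Atp5c1, the rotating gamma subunit of the same stalk, had the highest ratio of complex V. Its levels were 125 and 132 FPKM in si ctrl and 129 in both si Atad2 libraries, which lay between the si ctrl values (mean log2 ratio 0.010, SE 0.058). Atp5h, a subunit of the peripheral stalk, was the least expressed of the complex, at 54.3 and 58.0 FPKM in si ctrl and 55.2 and 53.9 in si Atad2. The groups of Atp5h overlapped, with a mean log2 ratio of -0.041 (SE 0.063, adjusted p by limma = 0.801). Atp5h shares stretches of up to 486 bases with 4 annotated pseudogenes and Atp5c1 stretches of up to 626 bases with 2.

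The ranking of the subunit genes by ratio was not shared between the pairs, although some genes, such as Uqcrfs1, changed alike in both. Over 52 subunit genes the Spearman correlation of the pair 1 and pair 2 ratios was -0.025, where it was 0.37 over all genes tested. The Pearson correlation was 0.56 with Uqcrfs1 and -0.0039 without it. These are descriptions across genes of the same libraries, which are not independent replicates. The median size of the log2 ratio over the subunit genes was 0.0533 in pair 1 and 0.0765 in pair 2, and the median difference between the 2 si ctrl libraries was 0.0698 and between the 2 si Atad2 libraries 0.0434, so the typical change on knockdown was of the same order as the spread between libraries of 1 group.

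**Figure D4:**
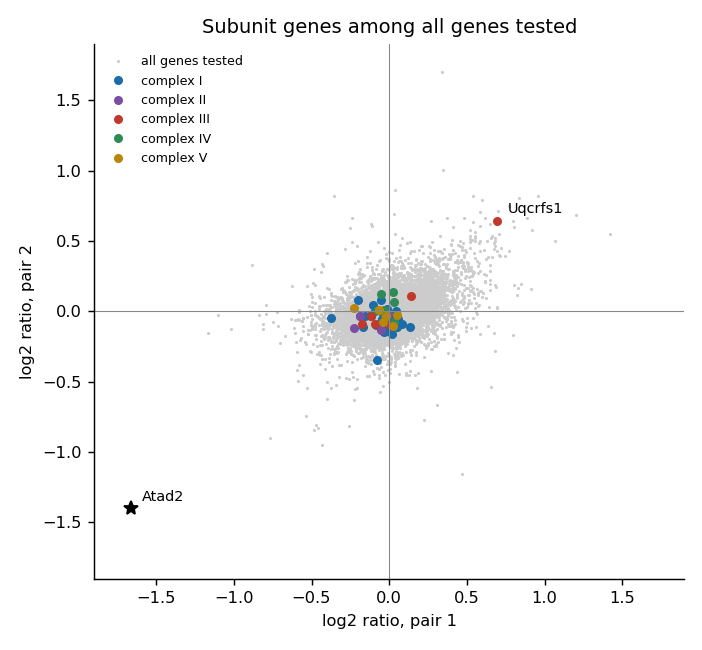
Log2 ratios after the knockdown in pair 1 (horizontal axis) and pair 2 (vertical axis) for 11058 genes tested (grey), the subunit genes (coloured by complex) and Atad2 (star). The subunit genes form a compact cloud around 0, apart from Uqcrfs1 at 0.69 and 0.64, and Atad2 lies at -1.66 and -1.40.

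The GC content of the transcripts moved with these ratios in pair 1. Over 51 subunit genes, Uqcrfs1 left out, the Spearman correlation of the ratio with GC content was -0.52 in pair 1 and 0.27 in pair 2. That of the ratio of si ctrl 2 to si ctrl 1 was -0.65, and that of si Atad2 2 to si Atad2 1 was 0.098. Over all genes tested the same values were -0.29, 0.087, -0.56 and 0.074. Subunit genes rich in GC, such as Atp5d and Ndufb7 (61.1% and 59.7% GC), were thus higher in si ctrl 1 than in si ctrl 2 and si Atad2 1. With a smooth trend on GC removed from each pair, Uqcrfs1 kept a log2 ratio of 0.66 (adjusted p by limma = 0.0126) and the counts of subunit genes called were again 1 higher and 0 lower.

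**Figure D5:**
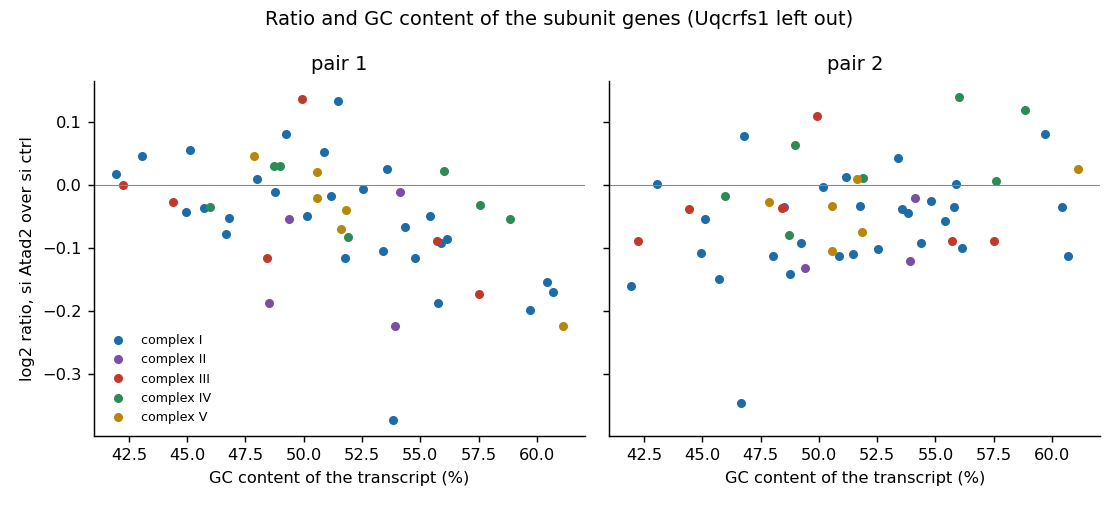
Log2 ratio of si Atad2 over si ctrl against the GC content of the transcript among 51 subunit genes, pair 1 (left) and pair 2 (right), coloured by complex. The ratio falls with GC content in pair 1 (Spearman -0.52) and not in pair 2 (0.27).

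The promoters of these genes are known to carry sites for NRF1, for ETS factors such as GABPA and for YY1, which link nuclear genes to mitochondrial function. Windows from 250 bases before to 50 bases after the RefSeq start (build GRCm38.p6) matched 43 of 54 subunit genes by symbol. The windows were searched on both strands for the letters CGCATGCG of NRF1, CCGGAAG of ETS factors and AAGATGGC of YY1. General promoter elements were searched in the same way, GGGCGG as the letters of SP1, TATAAA as a TATA box, and the CCAAT box by the letters of its name. The NRF1 letters were found in 4 subunit genes (9.3%), where 4.65% of the tested genes with a window and 2.07% of all genes held them. The ETS letters were found in 11 (25.6%, against 20.7% and 9.93%) and the YY1 letters in 7 (16.3%, against 5.61% and 3.19%). The SP1 letters were found in 18 (41.9%, against 71% and 38.2%), the TATA box in 3 (6.98%, against 8.64% and 15.7%) and the CCAAT box in 15 (34.9%, against 43.5% and 41.1%). A match of letters is a description and not a site bound by a factor.

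The 7 YY1 matches had a common place. In 6 genes the match read on the strand of the gene and began 23 to 39 bases after the start, inside the first exon, while in Atp5j it began 88 bases before the start of 1 of its 2 windows. Of all genes with a YY1 match, 32.5% held it on the strand of the gene within the first 50 bases, and of the tested genes with a match 48.3% did. The 30 bases that hold the match are shown for the 6 genes (match in capitals, strand of the gene, positions on GRCm38.p6). The letters they share are the letters searched for, which contain an ATG, so this sharing is no result.
Ndufa9 (chr6:126849097-126849126, minus): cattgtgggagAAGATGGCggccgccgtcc
Ndufb8 (chr19:44555393-44555422, minus): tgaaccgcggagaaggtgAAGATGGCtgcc
Ndufc1 (chr3:51408915-51408944, minus): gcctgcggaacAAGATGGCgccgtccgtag
Ndufs4 (chr13:114388045-114388074, minus): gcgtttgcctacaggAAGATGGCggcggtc
Ndufs6 (chr13:73328433-73328462, minus): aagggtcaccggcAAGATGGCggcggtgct
Ndufs7 (chr10:80249462-80249491, plus): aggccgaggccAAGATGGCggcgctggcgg
All 6 genes belong to complex I, which holds 28 of the 54 subunit genes, while Atp5j, with the remaining match, belongs to complex V. Whether the matches favour a complex was not tested. The mean log2 ratios of the 6 genes ran from -0.14 (Ndufs7) to 0.024 (Ndufs4), with a median of -0.035.

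Longer promoter stretches are shown for Cox6a1, which had the highest si ctrl level among genes with NRF1 letters and also among genes with ETS letters, and for Uqcrfs1, which was chosen after its values were seen. They run from 180 bases before to 30 bases after the start, with every match to the letters above in capitals.
Cox6a1 (chr5:115348929-115349138, minus): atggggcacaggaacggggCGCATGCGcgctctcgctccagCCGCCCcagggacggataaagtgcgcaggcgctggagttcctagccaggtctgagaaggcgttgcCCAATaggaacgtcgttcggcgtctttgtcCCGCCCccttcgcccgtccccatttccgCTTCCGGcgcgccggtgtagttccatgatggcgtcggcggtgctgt
Uqcrfs1 (chr13:30545287-30545496, minus): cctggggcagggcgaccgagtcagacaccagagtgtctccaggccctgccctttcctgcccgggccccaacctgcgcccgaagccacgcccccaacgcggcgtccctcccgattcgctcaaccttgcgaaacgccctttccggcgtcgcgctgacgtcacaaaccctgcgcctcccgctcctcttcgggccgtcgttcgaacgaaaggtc
Cox6a1, a subunit of complex IV, held NRF1 letters 161 bases, SP1 letters 139 and 44 bases, a CCAAT box 74 bases and ETS letters 16 bases before the start. It was at 337 and 281 FPKM in si ctrl and at 324 and 305 in si Atad2, so the groups overlapped (mean log2 ratio 0.033, SE 0.060, adjusted p by limma = 0.832). None of the letters searched occurs in the Uqcrfs1 stretch. The median of the mean log2 ratio was -0.079 over 3 measured genes with NRF1 letters, -0.058 over 9 with ETS letters, -0.035 over 6 with YY1 letters and -0.043 over 24 with none of these 3.

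Genes that serve the same pathway were compared as lists. The first list held 21 other nuclear genes tested, which were subunits together with Atpif1, Cycs and Cox7a2l. Further lists held 40 assembly factors, 10 citric acid cycle enzymes, 11 regulators of mitochondrial biogenesis and 69 mitochondrial ribosomal proteins tested. In each of these lists limma called 0 genes at the adjusted threshold. At an unadjusted p under 0.05, 8.04% of all genes tested were lower and 8.31% higher. The lower genes at this threshold numbered 5 (23.8%) of the first list, 4 (10.0%) of the assembly factors and 2 (20.0%) of the cycle enzymes. They numbered 0 of the regulators and 4 (5.8%) of the ribosomal proteins. The higher genes were 1 (9.09%) of the regulators and 0 in the other lists. Their median log2 ratios were -0.035, -0.037, -0.032, -0.029 and -0.041, close to that of the subunit genes. Of the subunit isoforms known as restricted to certain tissues, 8 were listed, at 0.0233 to 34.2 FPKM in si ctrl, with Cox6b2 (35.5 and 32.9 FPKM), Cox7a1 (28.2 and 26.9) and Cyct (15.9 and 18.5) as the highest, and 0 of 5 tested passed the adjusted threshold or an unadjusted p under 0.05. Of the 13 subunits encoded in mitochondrial DNA, 3 were tested, mt-Nd1, mt-Nd2 and mt-Co1, with mean log2 ratios of -0.019, 0.018 and 0.12 and 0 called (0 at an unadjusted p under 0.05). In si ctrl, mt-Co2 was at 0.181 and 0.0935 FPKM, beside 3406 and 3697 FPKM for mt-Co1. Among the genes of the first list, Ndufs5 was at 0.107 and 0.235 FPKM and Atp5g2 at 0.588 and 0.571 in si ctrl. Cycs, of the same list, was at 0.909 and 1.09 FPKM in si ctrl. The cause of these low values was not tested, so levels of single genes in the lists are uncertain.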

How the data were processed

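The submitters' processing notes name TopHat and Cuffdiff, without versions, and the tables come from runs of 1 si Atad2 against 1 si ctrl library. The authors deposited FPKM with a 95% interval for 59120 transcripts. The notes name build mm9, but 57.4% of the locus starts checked lie within 5 bases of a GRCm38 transcript edge. Other deposited columns hold the authors' fold changes, p-values and q-values and were not used; 0 columns of per-sample values were left out.

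Transcripts were named from GENCODE vM21 by length inside the locus (tolerance 3 bases), as the only coding gene there, as the only coding gene with 90% or more of its span inside, or by a length within 60 bases at loci of at most 3 coding genes; 48066 were named. FPKM of transcripts of 200 bases or more were summed per gene. Log2((si Atad2 + 1)/(si ctrl + 1)) within each pair was tested with limma 3.58.1 in R 4.3.3 (eBayes with a trend, Benjamini-Hochberg over 11058 genes with a mean of at least 1 FPKM), two-sided, threshold 0.05. The eBayes step pools the spread of each gene with that of genes of like level. SEs, p-values and intervals therefore rest largely on other genes. The SE was 0.056 for Cyc1, whose log2 ratios differed by 0.00089 between pairs. It was 0.070 for Ndufb7, whose log2 ratios differed by 0.28. The test was also run on simulated data with independent noise, sized from these 2 pairs. That run cannot show whether calls would hold in separate cultures. Strand use in counting is not stated, so overlapping genes are uncertain. Near copies were searched with blastn.

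The subunit genes and gene lists were chosen with earlier results of these data known. Named genes are Atad2, the highest and lowest si ctrl level and ratio of each complex, every gene past the threshold and the 3 whose pairs differ most; Ndufs7, Uqcrh, Cox6a1 and Atp5a1 were named in addition, after their values were seen. Alternatives were pseudocounts, scalings, level and length filters, naming, the leading transcript, the fit without pairing or trend, GC and each library left out; naming without the 2 wider steps was added after seeing the data.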

Additional observations from a re-analysis of the deposited data

How the results depend on the processing

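Uqcrfs1 was called higher, at log2 ratios of 0.63 to 0.71, in each setting with a test that gave it a value, except without a minimum level. There its ratio was 0.668 (adjusted p by limma = 0.331), Atad2 was at -1.53 (0.319) and 0 subunit genes were called higher, as 0 of 18955 genes were called in all; the cause was not tested. With names by length alone 8 subunit genes had a value and Uqcrfs1 had none, so 0 were called higher, 3 were below 0 in both pairs, 1 was above and the median was -0.0498. The median of -0.044 was -0.0091 with TPM, where 15 genes were below and 11 above 0 in both pairs, -0.0374 with the median of ratios and -0.0549 without the 2 wider naming steps (42 genes). Leaving out a library or a pair gave medians of -0.0494 to -0.0363, 0 to 2 genes called lower and 1 called higher. TPM moved the 52 subunit genes up together by a median of 0.0349. Ratios that were below 0 and nearer to 0 than about this changed sign by construction. This held for Sdhc (0.0199), Cox4i1 (0.0234), Cox7c (0.00847), Cox7a2 (4.3e-05) and Atp5b (0.00562). With the GC trend removed the sign changed for Sdhc (0.000173), Cox4i1 (0.0146) and Atp5c1 (-0.000246). With a library or a pair left out the ratio ranged from -0.0615 to 0.0377 for Cox4i1, -0.0816 to 0.0115 for Cox7a2, -0.0665 to 0.0141 for Cox7c, -0.0688 to 0.00946 for Atp5b, -0.0264 to 0.0471 for Atp5c1, -0.225 to 0.0262 for Atp5d, -0.104 to 0.0216 for Atp5h and -0.198 to 0.082 for Ndufb7.

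Libraries of the same number share a Cuffdiff run, which is where the pairing comes from. Their deviations from the group means had a correlation of -0.0116 over all genes tested and -0.172 over 52 subunit genes, so the values show no shared deviation. Without the replicate block Uqcrfs1 kept its log2 ratio of 0.668 (adjusted p by limma = 0.00116) and no call of a subunit gene changed, while 162 genes were called in place of 237.

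Over all genes tested the calls numbered 146 with the median of ratios, 101 with the GC trend removed, 96 with the leading transcript alone, 31 with names by length alone, 23 with transcripts of all lengths, 11 without si ctrl replicate 1, 11 without si ctrl replicate 2, 758 without si Atad2 replicate 1 and 2071 without si Atad2 replicate 2. These last 4 fits had no replicate block, and a lone library left in a group was assumed to vary like the other group.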

Other observations

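Markers of the ES cell state were measured beside the subunit genes. Of 8 ES cell markers, limma called 0 at the adjusted threshold, and 4 (50.0%) were lower at an unadjusted p under 0.05, where 0.515% and 8.04% of all genes tested were lower by these thresholds. Nanog, a core pluripotency factor, was at 338 and 332 FPKM in si ctrl and at 253 and 313 in si Atad2 (mean log2 ratio -0.25, adjusted p by limma = 0.104). Both si Atad2 libraries lay below both si ctrl libraries, with the larger difference in pair 1. Of 10 differentiation markers 4 were tested and 0 called (1 lower at an unadjusted p under 0.05), and of 7 fibroblast markers 2 were tested and 0 called (0 at an unadjusted p under 0.05). The 7 fibroblast markers summed to 8.49 and 7.71 FPKM in si ctrl and to 7.18 and 8.51 in si Atad2, and 4 of them were under 0.1 FPKM in every library. Differentiation markers summed to 7.79 and 7.84 FPKM in si ctrl and to 7.64 and 7.86 in si Atad2, with 2 under 0.1 FPKM in every library.

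Among enzymes that feed the respiratory chain, chosen after their values were seen, Idh3a, a subunit of the isocitrate dehydrogenase that makes NADH, was at 66.8 and 67.9 FPKM in si ctrl and at 46.6 and 61.9 in si Atad2 (mean log2 ratio -0.32, adjusted p by limma = 0.0684). Tfb2m, a factor for transcription of mitochondrial DNA, was at 2.49 and 2.55 FPKM in si ctrl and at 3.38 and 3.33 in si Atad2 (mean log2 ratio 0.31, adjusted p by limma = 0.0814). The groups of both genes did not overlap, and neither passed the threshold.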
